A study of Rattus norvegicus with 12 samples.

Results

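The 50 genes described here encode proteins of the cytosolic ribosome or carry the symbol of one, and they were taken by name from the 14217 gene symbols that the array's annotation gives alone to a probe set. Every symbol built like Rpl, Rps or Rplp with a number or an a was kept, the S6 kinases (Rps6k) were left out, and where several probe sets name a gene, the brightest by mean log2(signal + 16) stands for it. Of the 50, 34 carry names of the large subunit and 16 of the small subunit, and 2 (Rpl37-ps2 and Rps4x-ps1) are annotated as transcribed pseudogenes. The study dosed male Wistar rats with acrylamide, a neurotoxic monomer that damages peripheral and central axons, at 30 mg/kg daily by oral gavage for 21 days, and the control rats were given saline, which one label calls solvent. The 6 groups were sciatic nerve, spinal cord and cerebellum of acrylamide rats and the same 3 tissues of saline rats, with 2 arrays per group and a pool of 2 rats on each array. The rats were 25 days old at the start in the sample labels and 3 weeks old in the series text. Whether 1 set of rats gave all 3 tissues, and how long after the last dose they were collected, is not clear from the labels. Each replicate being a pool, the p-values reflect variation from pool to pool.

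Ribosomal proteins assemble with the ribosomal RNAs into the small subunit, which reads the mRNA, and the large subunit, which joins the amino acids. One copy of nearly every protein is needed per ribosome, and their mRNAs are among the most abundant in animal cells. Most of these mRNAs begin with a C followed by a run of pyrimidines, the 5′ terminal oligopyrimidine (TOP) motif, through which mTORC1 signalling controls their translation together. The sciatic nerve holds axons, Schwann cells and fibroblasts but not the cell bodies of its neurons, which lie in the spinal cord and the ganglia.

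The promoter windows of 8 members are shown because they are the 4 with the largest and the 4 with the lowest difference of sciatic nerve minus cerebellum among the tested members with an entry in RefSeq's promoter table (build GRCr8). Each runs from 20 bases before to 10 bases after the annotated transcription start, 5′ to 3′ on the gene's strand, and capitals mark the pyrimidines that run on unbroken from the start.
Rps27l, chr8:76443638-76443667, plus strand: ttatagtttattcatttgtcattatttgtg
Rpl22, chr5:168117941-168117970, plus strand: cctgcgtagtgcgcccccctCCCTTTCTgc
Rpl41, chr7:1563488-1563517, minus strand: gaaggggcggctcggaagtgacgacaccaa
Rplp0, chr12:46718381-46718410, minus strand: ctggtgaccgcaccgcacttCTCTCgccag
Rps3, chr1:163195767-163195796, minus strand: ttcctttcctttcagcggcgCgcggcagca
Rpl26, chr10:54109672-54109701, plus strand: gagatctcgtgtcaacttacagaaccggaa
Rpl24, chr11:58128396-58128425, minus strand: gaagggaatttagggaggagattctctacc
Rpl26l1, chr10:17029019-17029048, minus strand: aaaggaaatgtcatttccgggcctgcgcac
Rpl22 and Rplp0 carry a C and then pyrimidines from the start, whereas the windows of Rps27l, Rpl41, Rpl26, Rpl24 and Rpl26l1 hold no pyrimidine at the start base, and in Rps3 the C stands alone. The table held 41 of the 50 members. A C at the start followed by at least 4 more C or T was found in 11 of the 41 (26.8%), against 2.63% of the 33469 genes of the table. The longest unbroken run of C or T in the 30 bases on each side of the start had a median of 10 bases among members and 5 bases among all genes, and it reached 8 bases in 29 members (70.7%), against 23.2% of all genes. The motif CGGAAG on either strand lay in 19 member promoters of 300 bases (46.3%), against 16.6% of all, and AAGATGGC lay in 4 (9.76%), against 3.17%. These are matches of letters at annotated starts, and no match says only that the letters are not in the window.

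Members with and without a run that begins with a C at the start overlapped in their tissue differences. Among the 10 tested members with the run, the median log2 difference between nerve and cerebellum was 0.53 (0.15 to 1.29), and among the 27 without it 0.46 (-0.26 to 1.49). The 27 include Rpl27a, Rps23, Rps24, Rpl12 and Rpl3, whose annotated start is a T. From it pyrimidines run unbroken for 19, 19, 9, 5 and 5 bases, so the split does not separate members with and without pyrimidines at the start. Rpl19 and Rps15 have long runs.
Rpl19, chr10:83519044-83519073, plus strand: gagcccgcgaccagcaagctCTTTCCTTTC
Rps15, chr7:10068106-10068135, minus strand: gcagccgctgacaccgcttcCTTTTCCCag
Their differences between nerve and cerebellum, 0.38 and 0.57, lay on either side of the members' median of 0.42.

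Signals are in arbitrary units, and all arrays share 1 trimmed mean. The brightness of a probe set depends on its probes, so a signal is compared with that of the same gene on other arrays only. Comparisons used log2(signal + 16), a difference is called when its limma p-value, adjusted by Benjamini-Hochberg over all probe sets tested, is under 0.05, and ± after a log2 difference is its standard error. A probe set was tested when its mean passed the 40th percentile (a signal of 110) in a tissue compared. That held for 44 members in at least 1 tissue and for 42 in all 3, and 6 never passed it (Rpl28, Rpl30, Rpl39l1, Rpl3l, Rps13 and Rps4x-ps1).

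Markers of the labelled tissues were present, with some of their neighbours. The summed signal of 4 Schwann cell genes was 79531 to 99782 on nerve arrays and 1456 to 1746 on cerebellum arrays. On cord arrays it was 32583 and 30164 in acrylamide and 38523 and 40955 in saline. Whether this bears on the acrylamide differences in cord was not tested. The 4 motor neuron genes summed to 2872 to 3210.0 on cord arrays and stayed at or under 133 elsewhere. The 6 cerebellar granule neuron genes summed to 5211 and 4056 on the replicate 1 nerve arrays of the acrylamide and saline groups, against 520 and 563 on the replicate 2 nerve arrays, so RNA with cerebellar markers was on both replicate 1 arrays. Skeletal muscle genes summed to 46835 on spinal cord saline replicate 1, against 4827 to 6192 on the other cord arrays, and to 24460 on sciatic nerve acrylamide replicate 2, against 3279 to 8366 on the other nerve arrays. Counts of calls are therefore also given without cord saline replicate 1 and both replicate 1 nerve arrays, and without the 2 arrays with the most skeletal muscle signal. The 1 nerve array outside both sets is saline replicate 2, so no fit left out all 4.

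The sciatic nerve had higher signals for nearly all ribosomal protein genes than either part of the central nervous system. Of the 44 members tested, 41 were called higher and 1 lower in nerve than in spinal cord, where 36.3% of all 20242 probe sets tested were called higher and 34.1% lower. Against cerebellum, 38 were called higher and 1 lower, where 34.6% of 20724 probe sets were called higher and 44% lower. The median member was 1.36-fold higher in nerve than in cord (log2 0.45) and 1.34-fold higher than in cerebellum (log2 0.42), beside medians of 0.04 and -0.14 over all probe sets tested. Without cord saline replicate 1 and both replicate 1 nerve arrays, 40 were called higher and 1 lower than in cord, and 37 higher and 1 lower than in cerebellum. Without cord saline replicate 1 and nerve acrylamide replicate 2, a choice made after seeing the data, 40 were called higher and 1 lower than in cord, and 37 higher and 0 lower than in cerebellum. For these fits with arrays left out, the shares of all probe sets called are not given here. The size, and for some genes the direction, depended on how arrays were scaled: after quantile normalization 31 were called higher and 1 lower than in cord (all probe sets 39.3% and 32.1%), and 23 higher and 7 lower than in cerebellum (all probe sets 36.8% and 40.4%), with medians of 0.23 and 0.17.

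**Figure D1:**
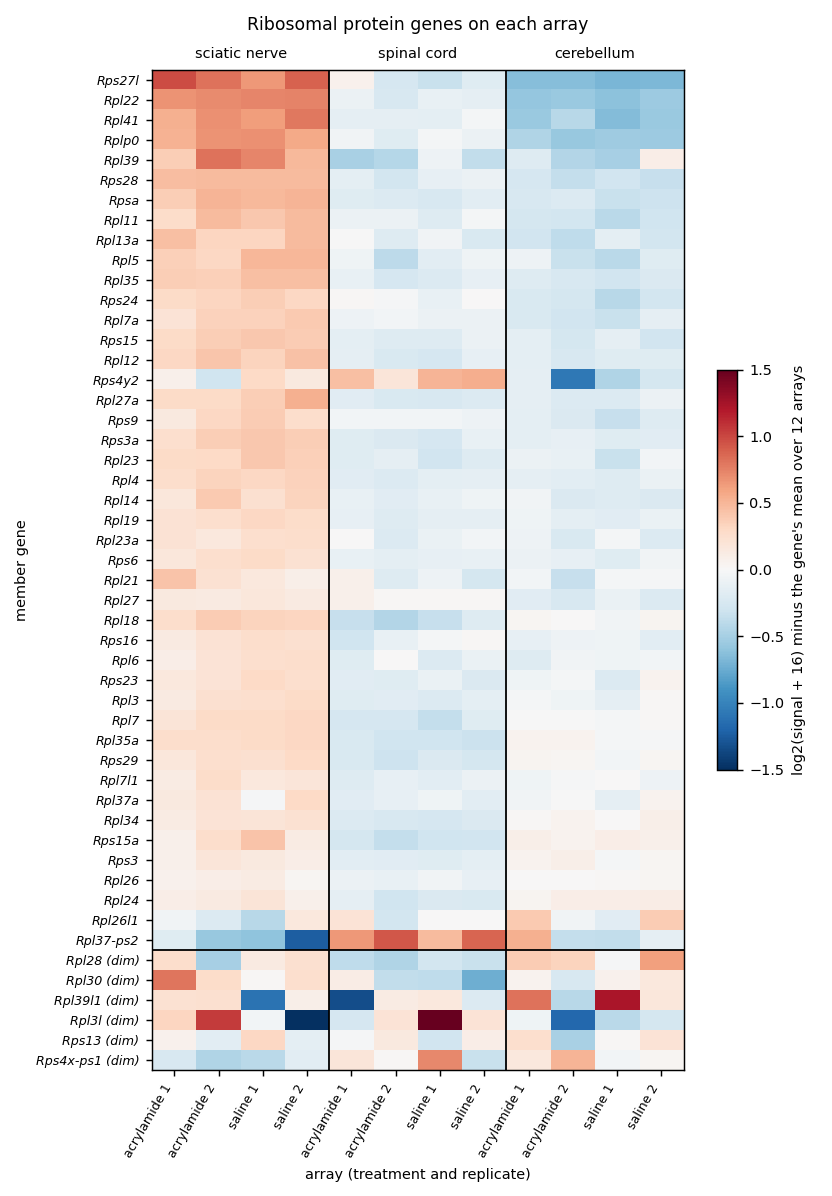
Map of log2(signal + 16) of each of the 50 members (rows) on each of the 12 arrays (columns), as the deviation from that gene's mean over the 12 arrays, with colours ending at 1.5 in either direction; rows run by the difference between nerve and cerebellum, and the 6 members below the filter stand last. Most rows are red on the 4 nerve arrays and pale or blue on the cord and cerebellum arrays, with acrylamide and saline columns alike in colour.

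The shift was shared by all 4 nerve arrays. Over the 40 members whose mean signal passed the 60th percentile of all probe sets (a signal of 304), the median deviation from a gene's own mean was 0.24 and 0.29 on the acrylamide nerve arrays and 0.32 and 0.31 on the saline nerve arrays. On the cord arrays it was -0.15 and -0.19 with acrylamide and -0.15 and -0.13 with saline, and on the cerebellum arrays -0.11 and -0.18 with acrylamide and -0.18 and -0.10 with saline. Between 39 and 40 of the 40 genes lay above their own mean on each nerve array, against 1 to 4 on each cord array and 5 to 12 on each cerebellum array. The SD of these array medians within groups was 0.04. All 40 were called higher in nerve than in cord. In bulk tissue, more of a cell type with many ribosomal protein mRNAs and more of these mRNAs per cell cannot be told apart. The median signal over all probe sets was 162 to 182 on nerve arrays, 190.4 to 199 on cord arrays and 195 to 197 on cerebellum arrays, and the counts after quantile normalization are given above.

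Rplp0 is the large-subunit protein at the base of the stalk that receives the elongation factors. Its signals in nerve were 10706 and 11863 in acrylamide and 11953 and 10988 in saline. In spinal cord they were 7193 and 6539 in acrylamide and 7284 and 6979 in saline, and in cerebellum 5436 and 4989 in acrylamide and 5126 and 5108 in saline. The 3 tissues did not overlap, with nerve highest and cerebellum lowest, and the log2 difference was 0.70 ± 0.06 against cord (adjusted p = 4.89e-06) and 1.14 ± 0.06 against cerebellum (adjusted p = 1.39e-07). Cord was also above cerebellum, by 0.44 ± 0.06 (adjusted p = 0.000128). All 3 differences kept their sign after quantile normalization, at 0.47, 0.88 and 0.41.

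Rpl22, an RNA-binding protein of the large subunit with a close paralog, Rpl22l1, showed the same order. Its nerve signals were 7732 and 7961 in acrylamide and 8084 and 8156 in saline. Cord signals were 4580.4 and 4094 in acrylamide and 4487 and 4419 in saline, and cerebellum signals 3237 and 3287 in acrylamide and 3169.8 and 3329.6 in saline. No array of one tissue reached the range of another, and the nerve was 2.44-fold above cerebellum (log2 1.29 ± 0.05, adjusted p = 2.46e-08) and 1.81-fold above cord (log2 0.86 ± 0.05, adjusted p = 5.51e-07). The probe set naming Rpl22l1 names other symbols too and is counted among the shared ones described further on.

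Rpl41 encodes a very short, arginine- and lysine-rich peptide that sits at the interface of the subunits. On nerve arrays it read 10586 and 11738 in acrylamide and 11252 and 12639 in saline. It read 6651 and 6663 in acrylamide and 6593 and 7176 in saline in cord, and 4954 and 5457 in acrylamide and 4655 and 4967 in saline in cerebellum. Nerve exceeded cerebellum by a log2 difference of 1.20 ± 0.06 (adjusted p = 1.52e-07) and cord by 0.77 ± 0.06 (adjusted p = 4.34e-06), and again the 3 tissues did not overlap.

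Rps27l is a copy of the small-subunit gene Rps27 that p53 activates in human cells. Its signals were 283 and 252 in acrylamide and 223 and 266 in saline in nerve. They were 143 and 112 in acrylamide and 105 and 119 in saline in cord, and 82.1 and 81.9 in acrylamide and 78.8 and 79.9 in saline in cerebellum, where the gene lay under the filter. Its difference against cerebellum, 1.49 ± 0.12, and that against cord, 1.003 ± 0.12, were the largest upward among the members in both comparisons (adjusted p = 2.84e-06 and 6.07e-05). It entered the comparisons with cerebellum through its nerve or cord signal alone, so a difference there was built into its being tested.

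**Figure D2:**
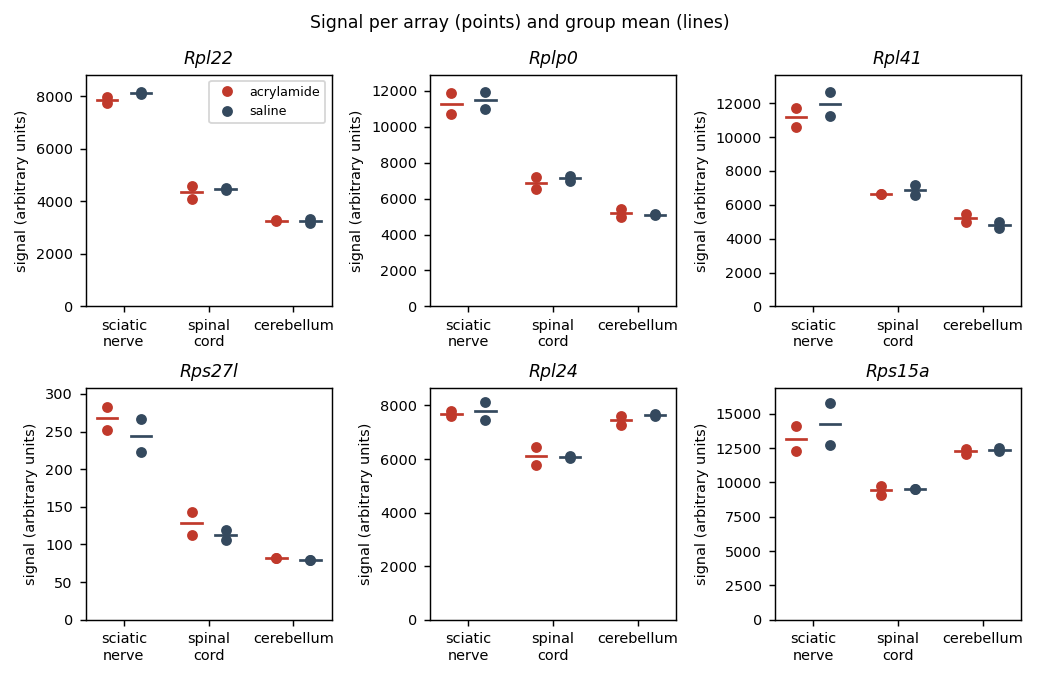
Signal in arbitrary units of 6 members on each array (points, 2 per group) with the group mean (line), acrylamide in red and saline in grey. Rpl22, Rplp0, Rpl41 and Rps27l are highest in nerve and lowest in cerebellum, whereas Rpl24 and Rps15a have their lowest signals in cord; acrylamide and saline points lie close together within each tissue.

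Rplp0, Rpl22 and Rpl41 belong to 9 members that passed the filter in all 3 tissues and were called higher at each step, cord over cerebellum and nerve over cord, the others being Rpl11, Rpl27, Rpl7a, Rps24, Rps28 and Rps9. The share of all probe sets with this order is not given here. The step of cord over cerebellum alone was called for 27.3% of tested members, against 31.9% of all probe sets. Without the 2 arrays with the most skeletal muscle signal, Rps28 and Rps9 lost the call in cord over cerebellum (adjusted p = 0.0542 and 0.0514) and Rpl27 that in nerve over cord (adjusted p = 0.105). With 1 array left out at a time, Rpl7a, Rps9 and Rps28 did not keep the call in cord over cerebellum in every fit. Nor did Rpl27 keep that in nerve over cord. Their differences ranged over 0.127 to 0.225, 0.140 to 0.214, 0.116 to 0.180 and, for Rpl27, 0.106 to 0.132. Rpl11 and Rpl5 bind the 5S rRNA together and, when free of ribosomes, restrain Mdm2. Rpl11 averaged 12158 ± 797 in nerve, 8558 ± 407 in cord and 7372 ± 317 in cerebellum (SD, n = 4 arrays each, both treatments). Rpl5 averaged 15505 ± 1070.5 in nerve, 10370.4 ± 1063 in cord and 9802 ± 996 in cerebellum. Both were called higher in nerve than in cord (log2 0.50 ± 0.06 and 0.58 ± 0.09), and the step between cord and cerebellum was called for Rpl11 (0.21 ± 0.06, adjusted p = 0.00993) but not for Rpl5 (0.08 ± 0.09, adjusted p = 0.428). Rpl27 had the smallest called step between nerve and cord, 0.12 ± 0.04, which turned to -0.10 after quantile normalization.

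A further 21 members were called higher in nerve than in both other tissues, with no call between cord and cerebellum. For this pattern, too, the share of all probe sets is not given here. Rps6, the protein phosphorylated by the S6 kinases, was one of the 21. It ranged over 12239.5 to 13296 in nerve, 9885 to 10125 in cord and 9606 to 10477 in cerebellum. Its log2 difference was 0.35 ± 0.04 against cord and 0.35 ± 0.04 against cerebellum (adjusted p = 6.47e-05 and 5.06e-05), and after quantile normalization it was 0.08 and 0.07, neither of them called. Rpsa, the small-subunit protein also described as a laminin receptor precursor, ranged over 8433 to 9323 in nerve, 5510.3 to 5859.7 in cord and 5168 to 5673 in cerebellum. It was 0.67 ± 0.05 above cord and 0.74 ± 0.05 above cerebellum, and its other 2 probe sets gave 0.65 and 0.77 against cord and 0.75 and 0.86 against cerebellum. Rpl39, at the exit of the peptide tunnel, ranged over 676 to 931 in nerve, 367 to 492 in cord and 363 to 557 in cerebellum. It was 0.94 ± 0.16 above cord (adjusted p = 0.000499). Rpl37a, also among the 21, did not keep its call against cerebellum in every fit with 1 array left out (0.114 to 0.270).

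Spinal cord and cerebellum had no common direction. Of the 44 members, 12 (27.3%) were called higher and 10 lower in cord than in cerebellum. Of all 20483 probe sets, 31.9% were called higher and 34.9% lower, so the members lay below those shares in both directions. The median difference was -0.01, beside -0.06 over all probe sets. On the 6 saline arrays alone, 6 were called higher and 7 lower, and the shares of all probe sets there are not given here. The 10 lower genes were Rpl18, Rpl24, Rpl26, Rpl3, Rpl34, Rpl35a, Rpl7, Rps15a, Rps29 and Rps3. With 1 array left out at a time, Rpl3 and Rpl26 did not keep the call in every fit, with differences of -0.163 to -0.089 and -0.129 to -0.092. Rpl3 also lost it without the 2 arrays with the most skeletal muscle signal (-0.112).

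Rps15a, of the small subunit, had the largest difference downward, -0.38 ± 0.07 (adjusted p = 0.00121). Its cord signals were 9760.1 and 9085 in acrylamide and 9523 and 9551 in saline, and its cerebellum signals 12415 and 12098 in acrylamide and 12495 and 12306 in saline. Every cord array lay below every cerebellum array. In nerve it read 12319.6 and 14079 in acrylamide and 15758 and 12703 in saline, a range that overlapped the cerebellum arrays, and nerve minus cerebellum was 0.15 ± 0.07 (adjusted p = 0.0838). Rpl24, which forms a bridge between the subunits, read 6432 and 5771 in acrylamide and 6105 and 6025 in saline in cord. It read 7278 and 7618 in acrylamide and 7603 and 7668 in saline in cerebellum, and 7588 and 7794 in acrylamide and 8129 and 7476 in saline in nerve. The log2 difference of cord minus cerebellum was -0.31 ± 0.05 (adjusted p = 0.000454), and nerve minus cerebellum was 0.04 ± 0.05 (adjusted p = 0.493). Rpl26 and Rps3, at the tunnel exit and at the mRNA entry of the ribosome, followed the same order, with nerve minus cerebellum at 0.06 ± 0.04 and 0.09 ± 0.04 and neither called. For these 4 genes quantile normalization gave negative values against cerebellum, -0.21, -0.15, -0.30 and -0.10, each called.

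The other 6 of the 10 genes were lower in cord than in cerebellum and yet called highest in nerve. Rpl18 is a large-subunit protein whose cord arrays (5899 to 6997) lay below the cerebellum arrays (7694 to 8195) and whose nerve arrays (9613 to 10438) lay above both. Its differences were 0.65 ± 0.05 for nerve minus cord, 0.32 ± 0.05 for nerve minus cerebellum and -0.33 ± 0.05 for cord minus cerebellum. Rpl35a and Rps29 had the same order, and nerve minus cord was 0.57 ± 0.04 and 0.49 ± 0.04. Rpl3, close to the catalytic centre of the large subunit, was 0.28 ± 0.05 above cerebellum. After quantile normalization the differences of nerve minus cerebellum were negative for Rpl3 (-0.08), Rpl35a (-0.04), Rps23 (-0.04), Rps29 (-0.21), Rpl34 (-0.13) and Rpl37a (-0.15), and the last 3 of these were called lower. Rpl18 and Rpl7 stayed positive at 0.11 and 0.03 but lost their calls (adjusted p = 0.0637 and 0.648), so none of these 6 genes was called higher than cerebellum on that scale.

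**Figure D3:**
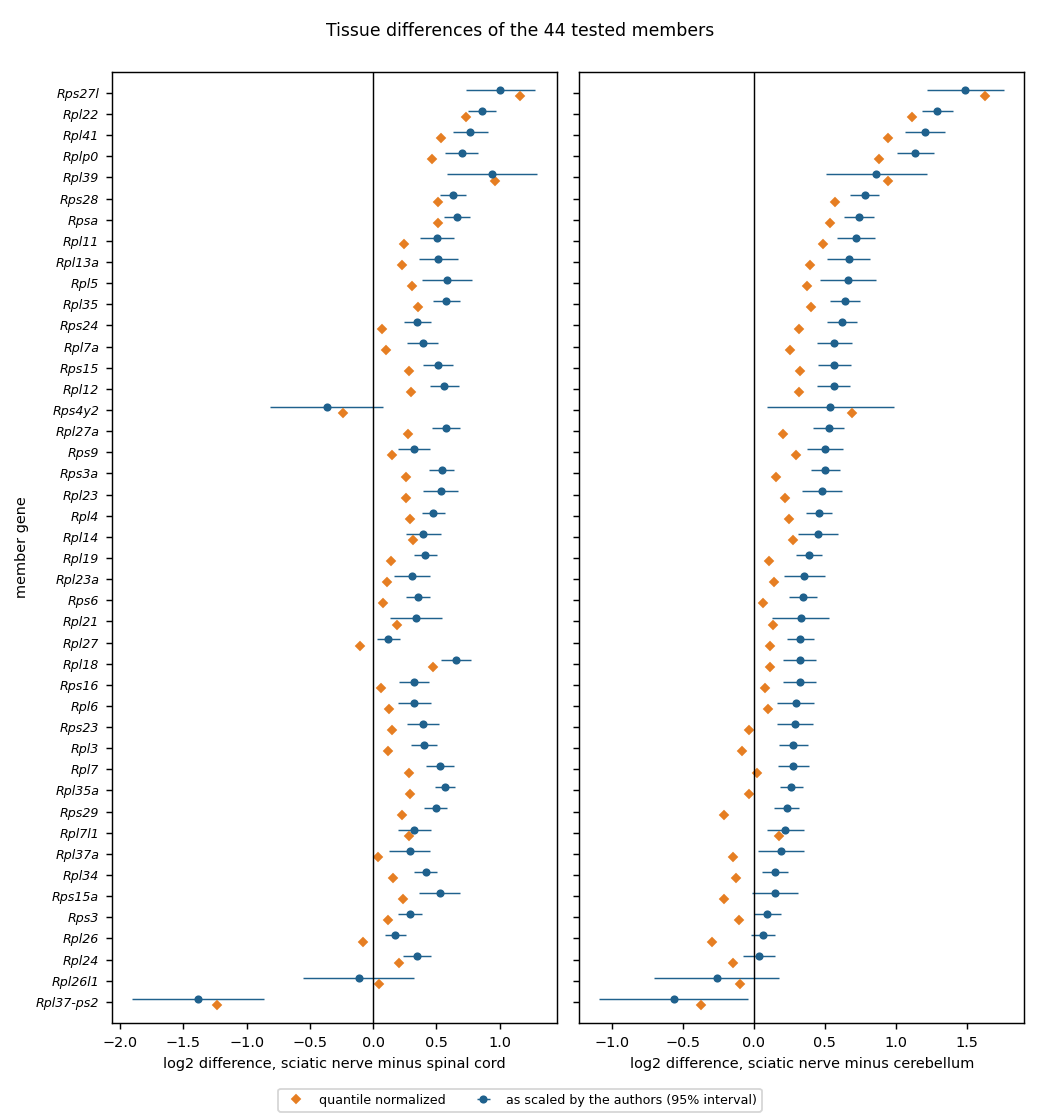
Log2 difference of nerve minus cord (left) and nerve minus cerebellum (right) for the 44 tested members, blue circles with 95% intervals for the values as scaled by the authors and orange diamonds after quantile normalization. Against cord almost all points lie right of 0 in both versions, and against cerebellum 12 diamonds lie left of 0.

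Members of both subunits were mostly called higher in nerve. In nerve minus cord the median was 0.45 over 30 tested large-subunit members and 0.44 over 14 small-subunit members, with 28 and 13 called higher. In nerve minus cerebellum the medians were 0.37 and 0.50, with 26 and 12 called higher. Differences of 2-fold or more were few: the called ones upward were Rps27l in both comparisons and Rpl22, Rpl41 and Rplp0 in nerve over cerebellum, where 17.8% of all probe sets were called at least 2-fold higher, and the 1 downward was Rpl37-ps2 in nerve against cord.

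The other pseudogene and copy symbols tested were Rpl37-ps2, Rps4y2, Rpl26l1 and Rpl7l1. Rpl37-ps2 read 132 and 96.5 in acrylamide and 94.1 and 54.7 in saline in nerve and 246 and 304 in acrylamide and 217 and 291 in saline in cord. It read 226 and 114 in acrylamide and 113 and 136 in saline in cerebellum. It was the 1 member called lower in nerve, with log2 differences of -1.38 ± 0.23 against cord (adjusted p = 0.000515) and -0.56 ± 0.23 against cerebellum (adjusted p = 0.0475). It passed the filter through the central tissues alone, and after quantile normalization it was not called lower than cerebellum. The call against cerebellum was lost with a replicate block across tissues (adjusted p = 0.06), without the 2 arrays with the most skeletal muscle signal (-0.47, adjusted p = 0.148) and when any of 9 of the 12 arrays was left out (adjusted p = 0.0569 to 0.177). Rps4y2 ranged over 141 to 221 in nerve, 203 to 266 in cord and 75.5 to 159.6 in cerebellum, and was called higher in cord than in cerebellum (0.91 ± 0.20, adjusted p = 0.00287), with nerve minus cord at -0.37 ± 0.20 (adjusted p = 0.124, and 0.0446 with a replicate block across tissues). It was also called higher in nerve than in cerebellum (0.54), but not in every fit with 1 array left out (0.304 to 0.774). Rpl26l1, a near copy of Rpl26, ranged over 109.8 to 172, 123 to 178 and 133 to 205 in the same order, overlapping between all tissues, and had no call. Rpl7l1, a homolog of Rpl7, averaged 1573 ± 73.7 in nerve, 1252 ± 40.2 in cord and 1346 ± 36.1 in cerebellum and was called higher in nerve in both comparisons. Probe sets of ribosomal protein genes can also bind transcripts of their many processed copies, and this was not tested.

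Rpl3l, a paralog of Rpl3 found mainly in heart and skeletal muscle, stayed under the filter. It read 32.0 and 50.2 in acrylamide and 200.1 and 50.02 in saline in cord, and 55.6 and 103 in acrylamide and 39.8 and 4.3 in saline in nerve. The highest signals in each tissue were on cord saline replicate 1 and nerve acrylamide replicate 2, the arrays with the most muscle marker signal, whose part in it was not tested. The muscle actin gene Acta1 read 13974 and 7532 on those 2 arrays, against 209 to 375 on the other cord arrays and 202 to 1692 on the other nerve arrays. Rpl39l1, a homolog of Rpl39, ranged over 9.83 to 49.5 in nerve, 6.04 to 46.1 in cord and 25.7 to 114 in cerebellum, and Rps4x-ps1 over 1.87 to 6.05, 3.45 to 24.5 and 7.77 to 18.8.

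Some members passed the filter on a shared probe set only. Rpl28, Rpl30 and Rps13 were under the filter on the probe sets that name them alone, at 28.7 to 59.9, 53.6 to 104 and 60.2 to 88.7 in nerve. Probe sets that name them together with other symbols passed the filter, at 8071 to 8969, 12560 to 13339 and 7814 to 8574 in the same tissue, and a second one naming Rpl30 read 5831 to 6385. These signals come from different probes, and the shared sets may also read the other genes they name, so the levels are not set against each other. In all, 36 further probe sets name a ribosomal protein symbol among several, and 35 of them were tested. Of these 35, 32 were called higher and 1 lower in nerve than in cord (median 0.46), where 36.3% and 34.1% of all probe sets were. Against cerebellum 30 were called higher and 2 lower (median 0.45), where 34.6% and 44% of all probe sets were. These counts are on the values as scaled by the authors. The one naming Rps12 had nerve signals of 13179 to 14358 and was 0.93 ± 0.04 above cerebellum (adjusted p = 6.16e-08), and the one naming Rps7 had a difference of -0.20 ± 0.05 there (adjusted p = 0.00325). Second probe sets of single members differed in sign in 3 cases: Rpl3 in nerve minus cerebellum (-0.14 ± 0.15, against 0.28), Rps24 in cord minus cerebellum (-0.25 ± 0.12, against 0.27) and Rpl7l1 in cord minus cerebellum (0.11 ± 0.08, against -0.10), and none of the 3 second probe sets was called there.

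Other lists of translation genes differed in direction. Initiation factor genes were called higher more often than lower, and mitochondrial ribosomal protein genes lower more often than higher. Of all probe sets, 36.3% were called higher and 34.1% lower in nerve than in cord. Against cerebellum the shares were 34.6% and 44%. Where no other scaling is named, counts for these lists are on the values as scaled by the authors. The mitochondrial ribosome has its own set of proteins, and of its 73 genes tested 9 were called higher and 44 lower in nerve than in cord (median -0.30), and 17 higher and 35 lower than in cerebellum (median -0.16). After quantile normalization these counts were 9 and 45 against cord and 17 and 32 against cerebellum. Centring each array on its median, which raised nerve minus cerebellum over all probe sets to a median of 0.03, gave 22 higher and 25 lower against cerebellum, and 42 of the cytosolic members higher and 0 lower. The shares of all probe sets called after this centring are not given here, so these counts stand without a background. Mrpl38, of the mitochondrial large subunit, was -1.26 ± 0.08 against cerebellum (adjusted p = 6.24e-07), and Mrpl51 and Mrps6 were 1.17 ± 0.06 and 1.49 ± 0.10.

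Among the 10 elongation factor genes tested, 6 were called higher and 3 lower in nerve than in cord. Eef1a1, the factor that delivers aminoacyl-tRNA in most cells, was 0.45 ± 0.04 higher than in cord (adjusted p = 6.93e-06) and 0.56 ± 0.04 higher than in cerebellum. Eef1a2, its form in neurons and muscle, was -3.73 ± 0.47 against cord (adjusted p = 8.07e-05). Of 34 initiation factor genes, 19 were called higher and 5 lower in each of the 2 comparisons. Of 58 genes of ribosome biogenesis, 21 were called higher and 12 lower than in cord, and 17 higher and 13 lower than in cerebellum, with the nucleolar methyltransferase Fbl 0.89 ± 0.08 above cord and Nolc1, a nucleolar phosphoprotein, at -0.68 ± 0.07. Of 8 other TOP mRNA genes, 6 were called higher and 1 lower than in cord. Rack1, a scaffold on the small subunit, was 0.45 ± 0.05 above cord and 0.32 ± 0.05 above cerebellum. Of 18 genes of S6 kinases and mTORC1, 7 were called higher and 7 lower than in cord, and Deptor, an mTOR inhibitor, was 1.72 ± 0.09 above cord.

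**Figure D4:**
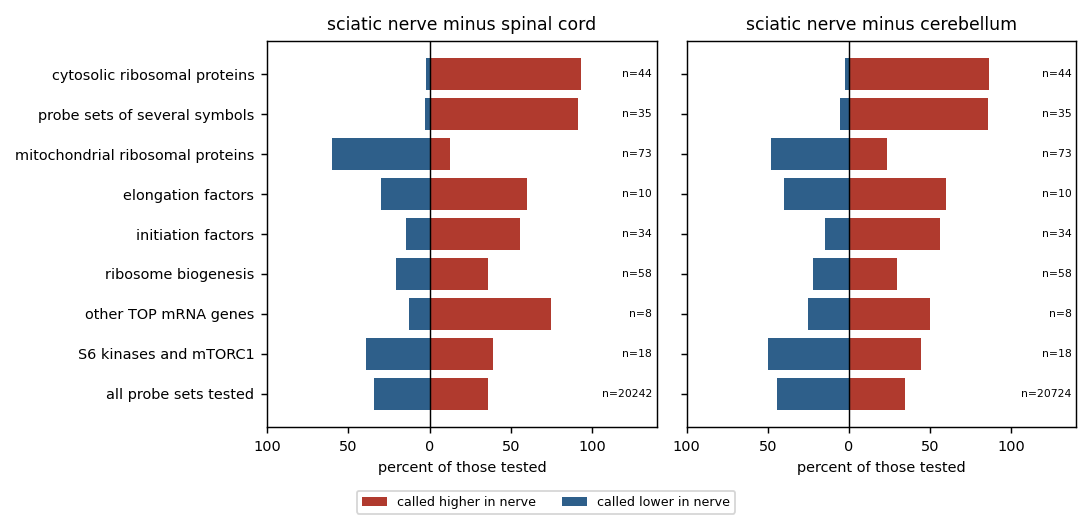
Percent of tested genes called higher (red, right) and lower (blue, left) in sciatic nerve than in spinal cord (left panel) and cerebellum (right panel), for the cytosolic ribosomal protein genes, other translation lists and all probe sets tested, with the number tested beside each bar. The cytosolic members and the probe sets of several symbols reach furthest to the right, and the mitochondrial ribosomal protein genes reach further to the left than to the right.

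Acrylamide was followed by no call among the ribosomal protein genes in any tissue. In sciatic nerve 0 of 43 tested members were called by limma, where 0.00553% of 18088 probe sets were, and 1 member had an unadjusted p under 0.05, where 5.1% of all probe sets did. In spinal cord 0 of 44 were called (0% of 18967 probe sets), and 1 had an unadjusted p under 0.05 (2.87% of all probe sets). In cerebellum 0 of 43 were called (0% of 18820 probe sets), and 0 had an unadjusted p under 0.05 (2.71% of all). The mean over the 3 tissues gave 0 calls of 42 (0.0127% of 15773 probe sets) and 0 members at an unadjusted p under 0.05 (5.49% of all). The limma F test for a difference of the acrylamide effect between tissues gave 0 calls of 42 (0% of 15773 probe sets) and 0 members at an unadjusted p under 0.05 (2.33% of all).

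In nerve the members' differences leaned to one side by an amount that depended on the scaling. The acrylamide arrays had the lower mean for 37 of 43 members and the higher for 6, with a median log2 difference of -0.05, beside 0.00 over all probe sets. In 15 members both acrylamide nerve arrays lay below both saline nerve arrays, and in 1 above (lower in 13% and higher in 13.3% of all probe sets). After quantile normalization the median was 0.0008, with 22 members higher and 21 lower. Centring on the array medians gave -0.10. Between the 2 acrylamide nerve arrays, the median over the 40 bright members of replicate 1 minus replicate 2 was -0.09, larger in size than the median between the groups. That was the largest such median of any group. Between the 2 saline nerve arrays it was 0.003, and in the cord and cerebellum groups it ran from -0.058 to 0.042. Leaving out each array in turn gave medians from -0.09, without acrylamide replicate 2, to -0.01.

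Rpl27a, of the large subunit, had the smallest p in nerve. It read 14044 and 14084 in acrylamide and 14935 and 16736 in saline, so the acrylamide arrays lay below the saline arrays. The difference was -0.17 ± 0.07 (unadjusted p = 0.0372, adjusted p = 0.97). Rpl5, of the 5S rRNA complex, read 14812 and 14370.1 in acrylamide and 16425 and 16412 in saline in nerve and differed by -0.17 ± 0.12 (adjusted p = 0.999). Rpl21 leaned the other way, with 9135 and 7945 in acrylamide and 7603 and 7208 in saline and a difference of 0.20 ± 0.13 (adjusted p = 0.999). Rplp0, Rps6 and Rpl11 differed by -0.02, -0.05 and -0.07.

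The medians in spinal cord and cerebellum were nearer 0. The cord median was -0.01, with 19 members higher and 25 lower, and the cerebellum median 0.01, with 28 higher and 15 lower. The groups did not overlap for 10 of 44 members in cord (3 higher and 7 lower; 33.6% of all probe sets) and 10 of 43 in cerebellum (7 higher and 3 lower; 33.7% of all). Without cerebellum saline replicate 2 the cerebellum median was 0.0575, larger in size than the nerve median. Rps16, a small-subunit protein, had the smallest p in cord. It read 7749 and 8856 in acrylamide and 9309.7 and 9624 in saline, with acrylamide below saline, and differed by -0.19 ± 0.07 (unadjusted p = 0.0279, adjusted p = 1). In cerebellum the smallest p belonged to Rpl35a, which read 10409 and 10481 in acrylamide and 9835 and 9941 in saline and differed by 0.08 ± 0.05 (unadjusted p = 0.154). Rpl35a had both acrylamide arrays above both saline arrays there.

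**Figure D5:**
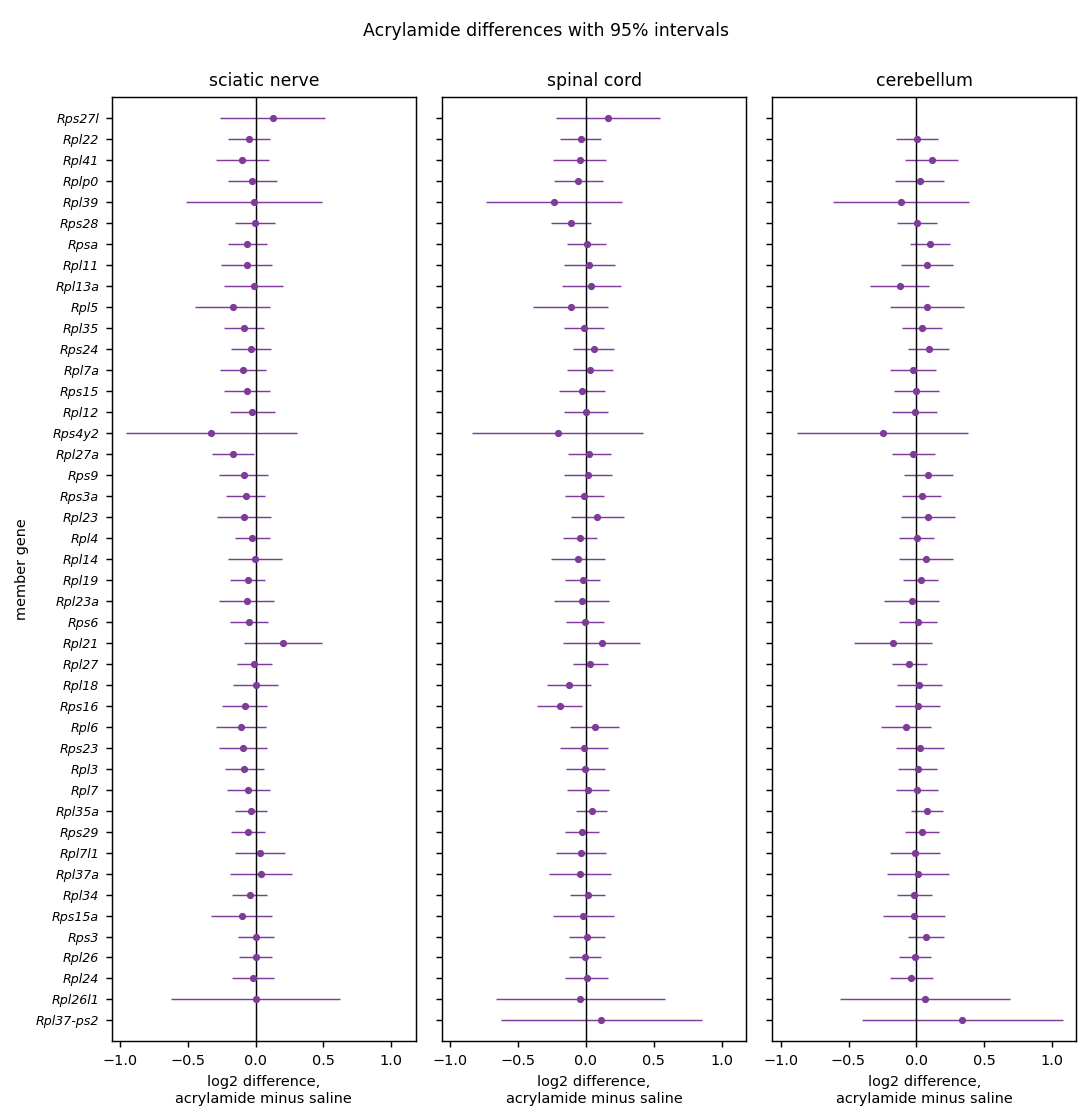
Log2 difference of acrylamide minus saline with its 95% interval for the tested members (rows) in sciatic nerve, spinal cord and cerebellum; a row without a point was under the filter in that tissue. All intervals cross 0 except those of Rpl27a in nerve and Rps16 in cord, and in nerve most points lie slightly left of it.

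Intervals were wide beside the differences. Over the 40 bright members the median standard error of an acrylamide difference in 1 tissue was 0.07. Their 95% intervals reached from -0.51 to 0.49 in nerve, from -0.73 to 0.40 in cord and from -0.62 to 0.39 in cerebellum, with the widest for Rpl39. For the mean over tissues they reached from -0.41 to 0.21, a range of 0.753-fold to 1.16-fold. That fit treated the arrays of different tissues as independent, and no block across tissues was fitted for it. If 1 set of rats gave all 3 tissues, the intervals of this mean may be too narrow. With 2 pools per group, any true change within a member's interval remains compatible with the values. The lack of a call does not show that there was no change. In the other lists none of the elongation factor, initiation factor, biogenesis, TOP, S6 kinase and mTORC1, mitochondrial ribosomal protein or shared probe sets was called with acrylamide in any tissue. At an unadjusted p under 0.05 in nerve were 2 of 10 elongation factor genes, 0 of 34 initiation factor genes, 3 of 58 biogenesis genes, 1 of 8 TOP genes, 1 of 17 genes of S6 kinases and mTORC1, 0 of 73 mitochondrial ribosomal protein genes and 0 of 35 shared probe sets, beside the 5.1% of all probe sets there. In cord each of these lists had 0. In cerebellum the initiation factor, TOP, mitochondrial and shared sets had 1 each and the others 0.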

How the data were processed

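Expression was measured on 12 one-colour Affymetrix rat arrays hybridised with biotinylated cRNA, per the labels' protocols, and arrays were grouped by the tissue and treatment in their labels. The authors deposited 1 intensity signal per probe set; the submitters' processing notes name GCOS 1.1, and neither the algorithm nor the scaling is stated. Each array's mean after trimming 2% at each end was 499.997. Of 31099 probe sets, 57 controls were left out; 20826 have 1 gene symbol, 436 several and 9780 none. limma 3.58.1 (R 4.3.3) was fitted with eBayes and a trend to log2(signal + 16) of 21347 probe sets, with 1 mean per group and 6 residual degrees of freedom, and was tested on simulated data; the number of arrays limits the precision. Tissue comparisons average both treatments. Members, lists and tests were chosen with earlier results of these data known. Named genes are the members past an adjusted p of 0.05, up to 12 in each direction by p, otherwise the 6 with the smallest p, with the extremes in signal, copies, Rplp0, Rps6, Rpl5, Rpl11 and members whose probe sets disagree; Rpl18, Rpl35a, Rps29, Rpl39, Rps23, Rpl34, Rpl37a and Rps15a were described after their values were seen where that rule does not name them. Between treatments, deviations of same-numbered arrays correlated at 0.08 in cerebellum and -0.04 in spinal cord, but at 0.47 in sciatic nerve. In nerve both replicate 1 arrays also held RNA with cerebellar markers, so there the number was not unrelated across treatments. The main fit has no block, and a replicate block within tissues was among the alternatives. Between tissues of 1 treatment all 6 correlations were over 0.1 (0.125 to 0.317), so the tissue comparisons were also fitted with the number within each treatment as a block across tissues, an alternative chosen after seeing the data; the labels do not say what a number marks. Alternatives were the pseudocount, filter, normalization, probe set choice, saline arrays only, replicate blocks and leaving out arrays. Sequences are from RefSeq, build GRCr8; protein sequences were not used here.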

Additional observations from a re-analysis of the deposited data

Results flagged for a closer look

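For 43 named members, the 4 arrays of each tissue were searched for 1 array that stood far from the other 3, taking both treatments together. Of 129 such sets, 7 held one, and chance alone gives about 5%. Rpl21 read 5358 on cerebellum acrylamide replicate 2, against 6629 to 6741 on the other cerebellum arrays. Rpl24 read 7278 on cerebellum acrylamide replicate 1, against 7603 to 7668, and Rpl6 read 7097 on the same array, against 7784 to 7918. Rpl27 read 8413 on spinal cord acrylamide replicate 1, against 8073 to 8118. Rpl41 read 7176 on spinal cord saline replicate 2, against 6593 to 6663. The other 2 are dim probe sets under the filter: Rpl28 at 28.7 on sciatic nerve acrylamide replicate 2, against 53.5 to 59.9, and Rpl39l1 at 9.83 on sciatic nerve saline replicate 1, against 43.0 to 49.5.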

How the results depend on the processing

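The counts of members called with acrylamide stayed at 0 under every alternative run, and 12 arrays limit what can be detected. The median acrylamide difference in nerve was 0.000848 after quantile normalization and -0.102 after median centring. Leaving out 1 array at a time gave -0.0899 to -0.0140 for that median, -0.00897 to 0.0575 in cerebellum, -0.029 to 0.012 in spinal cord and -0.030 to -0.006 for the mean over tissues. The saline arrays alone gave 13 called members for cord minus cerebellum, against 22 on all arrays, from 6 of the 12 arrays. Over all members tested, the median of nerve minus cord was 0.408 with no filter, 0.484 with the 60th percentile filter, 0.484 with the mean of a gene's probe sets, 0.23 after quantile normalization and 0.589 after median centring. That of nerve minus cerebellum was 0.352 with no filter, 0.168 after quantile normalization and 0.586 after median centring. With 1 array left out the 2 medians lay between 0.428 and 0.468 and between 0.353 and 0.433. After quantile normalization Rpl27 (-0.101) and Rpl26 (-0.0796) turned negative in nerve minus cord, and Rps23 (-0.0355), Rpl3 (-0.0803), Rpl37a (-0.148), Rpl34 (-0.128), Rps29 (-0.211) and Rpl35a (-0.0364) in nerve minus cerebellum; the cause was not tested. With a replicate block within tissues, the counts were 22 for cord minus cerebellum (13 higher and 9 lower, with 21 called alike in both fits, Rpl26 lost and Rpl13a gained), 42 and 39 for nerve minus cord and nerve minus cerebellum with the same members, and 0 for acrylamide. With the replicate block across tissues they were 23, 43 and 38: Rpl13a was gained in cord minus cerebellum and Rps4y2 in nerve minus cord, Rpl37-ps2 was lost in nerve minus cerebellum, and no other call changed. Without the 2 arrays with the most skeletal muscle signal the counts were 19, 41 and 37, and the acrylamide median in nerve was -0.0899; this and the block across tissues were chosen after seeing the data.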
